A study of Homo sapiens with 172 samples.

Results

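The clustered protocadherin locus on the long arm of chromosome 5 was examined for contact with the nuclear lamina, a mesh of lamin proteins that lines the nucleus from inside. The cells were KBM7, a human leukaemia line that has nearly all chromosomes in 1 copy, assayed one by one with DamID, in which a lamina-bound methyltransferase marks the DNA it touches. The locus was taken as the 8 bins of 100 kb that overlap positions 140100001 to 140900000 of chromosome 5 (hg19), out of 26414 bins with signal in the whole table. All 8 bins carried values, as did the 20 bins on each side that served as flanks of 2 Mb. The 172 labelled samples form 1 group, haploid cells of clone 5-5 that carry Dam methyltransferase fused to LaminB1. Methylation was induced for 15 h with 0.5 nM Shield1, and single cells were sorted from the 2% smallest of those double positive for the Fucci cell-cycle reporters. All cells come from 1 clone and no separate cultures are named, so cells were not used as replicates in a test, and standard deviations describe cell-to-cell spread. No RNA was measured, so neither the cell type nor the activity of the genes was checked here.

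Clustered protocadherins are cadherin-like proteins of the cell surface, best known from neurons, where each cell uses its own small set of them and like sets bind each other across membranes. Their genes lie in arrays named alpha, beta and gamma. In the alpha and gamma arrays each gene has its own first exon and promoter, and the transcripts are spliced to constant exons at the end of the array, whereas the beta genes have no shared exons. DNA near the lamina is generally poor in active genes. The comparison asks how often the arrays touch the lamina and how contact varies from cell to cell.

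In the RefSeq gene table (GRCh38.p14) the alpha array holds 15 coding genes from PCDHA1 to PCDHAC2, the beta array 16 from PCDHB1 to PCDHB15, and the gamma array 22 from PCDHGA1 to PCDHGC5, in this order. The locus is preceded by HARS2 and ZMAT2 and followed by DIAPH1, a formin that nucleates actin, and HDAC3, a histone deacetylase. SLC25A2, a mitochondrial ornithine carrier, and TAF7, a subunit of the general transcription factor TFIID, lie between the beta and gamma genes. The deposited table names no genes. The first 3 bins were assigned to the alpha array, the next 3 to the beta array and the last 2 to the gamma array, from the known hg19 layout at the resolution of the bins. The first alpha bin also takes in DNA before the array, and the last beta bin takes in much of the stretch between the beta and gamma genes.

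Many of the members share a short element upstream of their starts, and its commonest form differs between the arrays. The core CGCT, searched in the 250 bases upstream of each gene on both strands, was present in 12 of 13 alpha, 13 of 14 beta and 20 of 20 gamma genes with a sequence, against 67.2% of 27305 genes in the whole promoter table, so the core alone sets little apart. The commonest 9 bases that contain it were GATGTCGCT in 9 of 13 alpha genes, GGTGGCGCT in 12 of 14 beta genes and GCGCCGCTG in 10 of 20 gamma genes. None of these occurred in either of the other arrays, and 0.106%, 0.516% and 1.20% of all genes in the promoter table held them. The core ends the alpha and beta strings but not the gamma string. Absence from the other arrays thus concerns the exact strings only. They were picked as the commonest in these genes, so the shares are descriptions. One promoter stretch per array is shown, the first gene in order that holds the element, with the element in capitals. The element ends 35 bases before the start in PCDHA1, 52 in PCDHB2 and 91 in PCDHGA1. Positions are in GRCh38.p14, plus strand, and are not comparable with the hg19 bins. PCDHA1 is at chr5:140786072-140786130, PCDHB2 at chr5:141094530-141094588 and PCDHGA1 at chr5:141330390-141330448.
PCDHA1: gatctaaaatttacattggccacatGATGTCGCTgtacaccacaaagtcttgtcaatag
PCDHB2: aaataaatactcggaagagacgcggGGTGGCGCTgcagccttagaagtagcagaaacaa
PCDHGA1: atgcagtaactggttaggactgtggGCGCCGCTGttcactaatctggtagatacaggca

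A table of 168 columns was used. Among the other columns, the best match of all 168 in log reads was the column 86 numbers away, so such pairs were taken as 1 cell and averaged, giving 84 cells named by the lower number. Values are observed reads divided by expected reads, and contact means a ratio of 1 or more. Calls repeated only in part between the 2 columns of a cell. Of 672 values in the locus, 93 were in contact in the lower-numbered and 85 in the higher-numbered columns. Both columns had contact in 65 and neither in 559. Reads worked back from the ratios came to 7134 to 418937 in the deeper column of a cell, with a median of 63700. In the locus a ratio of 1 stood for a median of 2.08 to 3.77 reads, depending on the bin, and for under 1 read in 10 to 14 of the 84 cells. Over all 8 bins the deeper columns held a median of 4.5 reads per cell, from 0 in 12 cells to 152. A missed contact and an absent one can therefore not be told apart in shallow cells. A call can also rest on 1 read there. Cells 26 and 56 each had 1 bin in contact and 1 read in the locus in the deeper column. That bin was the last gamma bin in cell 26 and the first alpha bin in cell 56. In cell 79 chromosome 5 as a whole had few reads, 104 of 41795 in the lower-numbered column and 1156 of 59986 in the higher-numbered one, with 0.398% of its bins in contact, and the 2 columns of cells 54 and 56 resembled each other less than most, with correlations of log(reads + 1) over bins of 0.689 and 0.576.

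On average over its bins, the protocadherin locus was an island of infrequent contact between flanks with still less. Single bins overlapped. The last bin of the flank after the locus, at 19.0%, was above every bin of the locus except the last alpha bin. Both gamma bins, at 8.33%, were no higher than the flank bin 141800001 to 141900000. It was in contact, in at least 1 of its 8 bins, in 37 of 84 cells (44.0%, exact 95% interval 33.2 to 55.3%). The mean frequency over its bins was 12.8% ± 19.1 (SD over cells, n = 84), against 1.67% ± 4.27 in the flank before it, which ends with HARS2 and ZMAT2, and 5.00% ± 9.73 in the flank after it, which begins with DIAPH1. The level depends on the cutoff, and the mean of the locus was 24.6% at a ratio of 0.5 and 3.57% at 2. Intervals cover counting error over the 84 cells only, since all cells come from 1 clone and no separate cultures are named. Reads were not taken as counts of molecules, since how duplicates were treated is not given in the sources used here.

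**Figure D1:**
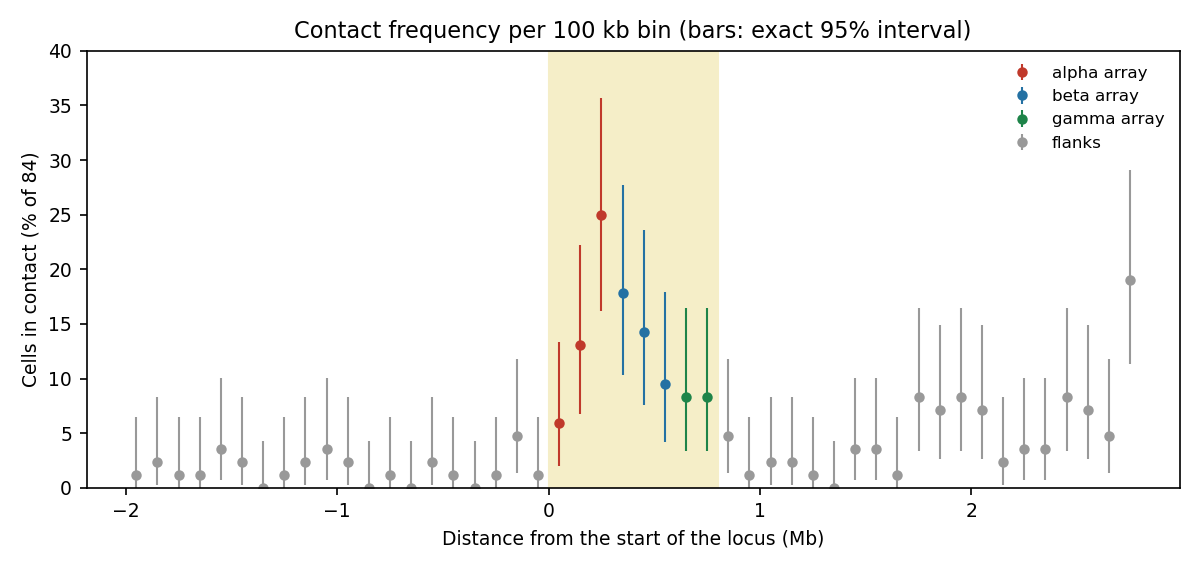
Percent of 84 cells in contact for each 100 kb bin of the locus (shaded) and of its flanks, with exact 95% intervals, against the distance from the start of the locus in Mb. Frequency climbs to 25.0% in the last alpha bin and declines towards the gamma array, and the flank bins lie mostly under 5%.

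The alpha array, whose genes are read towards the beta array, held both the lowest and the highest bin of the locus. Its first bin, 140100001 to 140200000, which also takes in DNA before the array, was in contact in 5 cells (5.95%, exact 95% interval 1.96 to 13.3%). The second, 140200001 to 140300000, was in contact in 11 cells (13.1%, 6.72 to 22.2%). The third, 140300001 to 140400000, at the end of the array with the C-type genes PCDHAC1 and PCDHAC2 in gene order, was in contact in 21 cells (25.0%, 16.2 to 35.6%). The intervals of the first and the third bin did not overlap, whereas those of neighbouring bins did. All bins come from the same 84 cells, and the differences between them were not tested. Ratios in the third bin ran from 0 to 8.72, with a median of 0.224, the highest in cell 3, and 51 of 84 cells had a value above 0. It was the only bin of the locus whose median was above 0, since each of the other 7 was at 0 in more than 40 cells.

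The beta array declined along its length. Contact was found in 15 cells (17.9%, exact 95% interval 10.4 to 27.7%) in its first bin, 140400001 to 140500000. It was found in 12 cells (14.3%, 7.61 to 23.6%) in the second, 140500001 to 140600000, and in 8 cells (9.52%, 4.20 to 17.9%) in the third, 140600001 to 140700000. These 3 intervals overlapped one another. Each interval treats its bin alone although all bins come from the same 84 cells. They therefore do not settle the order of the beta bins, which was not tested. The highest ratios were 4.50 in cell 72, 2.91 in cell 25 and 4.45 in cell 54.

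The gamma array was contacted least. Both of its bins, 140700001 to 140800000 and 140800001 to 140900000, were in contact in 7 cells (8.33%, exact 95% interval 3.42 to 16.4%), but only 2 cells had both. The first bin reached a ratio of 2.65 in cell 3. The second reached 16.7 in cell 54, the highest of the locus, from 8 reads in the lower-numbered and 10 in the higher-numbered column of a cell with 14065 reads at most. The same cell had a ratio of 15.6 in the next bin, outside the locus. The mean ratio of the gamma array was 0.355 ± 1.08 (SD, n = 84) with this cell and 0.245 ± 0.398 without it.

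All 8 bins of the locus were in contact in at least 5% of cells, as were 63.3% of all covered bins, and 1 of the 8 was in contact in at least 20%, as were 47.7% of all covered bins. On chromosome 5 alone the shares were 74.9% and 57.9%. In the flanks none of the 20 bins before the locus and 7 of the 20 after it reached 5%, and none of either reached 20%. Against the genome the locus was thus not a place of frequent contact. Its last alpha bin lay above 55.1% of all covered bins, and its first alpha bin above 36.7%. Of 25504 windows of 8 adjacent covered bins, 58.9% had a mean frequency at least as high as the 12.8% of the locus, and on chromosome 5 this was 70.9%. The rest of chromosome 5, outside locus and flanks, averaged 34.2% ± 12.6 (SD over cells, n = 84), and the locus was lower in 75 of 84 cells, by a mean of 21.4 percentage points.

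Differences between the arrays within a cell were small beside the spread over cells. Mean frequency was 14.7% ± 24.5 in the alpha array, 13.9% ± 25.5 in the beta array and 8.33% ± 21.7 in the gamma array (SD, n = 84). The alpha array exceeded the beta array by 0.794 ± 23.1 percentage points, higher in 13 cells, lower in 10 and equal in 61, and the sign turned under several alternatives. In mean frequency the excess of alpha over gamma was 6.35 ± 29.6 points, with alpha higher in 25 cells and gamma in 8. For beta over gamma it was 5.56 ± 25.9 points, with beta higher in 19 cells and gamma in 8. Both orders above gamma kept their sign in all 15 alternatives run. These reuse the same 84 cells or parts of them, so a kept sign is no independent support. Means ran from 0.595 to 11.9 points for alpha and from 0.992 to 11.1 points for beta, both lowest at a cutoff of 2. Their size was not stable, since alpha exceeded gamma by 11.9 points in odd-numbered cells and by 0.794 in even-numbered ones. Beta exceeded gamma by 7.94 and 3.17 points in the same 2 sets of cells. Without the first alpha bin and the last beta bin, which also hold DNA outside the arrays, alpha averaged 19.0% and beta 16.1%. Alpha then exceeded beta by 2.98 points and gamma by 10.7, and beta exceeded gamma by 7.74. Most cells were equal because neither array was in contact. In mean ratio the beta array stood at 0.424 ± 0.591 and the alpha array at 0.415 ± 0.649, with alpha higher in 35 cells and beta in 35. The alpha array had the higher ratio than gamma in 48 cells and the lower in 17, and the means, 0.415 and 0.355, were 0.420 and 0.245 without cell 54. Bin number enters the counts of cells against gamma, in frequency and in ratio, since 2 bins are more often all 0 than 3. In the deeper columns 60 cells had a read in alpha, 56 in beta and 46 in gamma. In at least 1 bin, 27 cells had the alpha array in contact (32.1%, exact 95% interval 22.4 to 43.2%), 24 the beta array (28.6%, 19.2 to 39.5%) and 12 the gamma array (14.3%, 7.61 to 23.6%), but the gamma array had 1 bin fewer in which to do so.

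The same profile appeared in pooled reads, which use no cutoff. The expectation of a bin was a whole number of equal steps, the smallest unit in which the table's expectations differ. It was 247 to 448 in the 8 bins and 316 in the median covered bin, so the locus was not thinly covered. Reads of the deeper columns, pooled over cells and so weighted towards deep ones, came to 24.7, 60.0 and 98.1 per 100 expected steps in the alpha bins, in order. They came to 84.2, 55.1 and 43.4 in the beta bins and to 34.1 and 37.7 in the gamma bins. The flank before the locus had 9.41 and the flank after it 23.0, against 109 over all covered bins. The last alpha bin was thus 5.91 times the pooled value of both flanks and the first alpha bin 1.49 times. Without cells 48, 54, 56, 63, 69 and 79, which earlier results on these data had set apart, the last alpha bin had 90.2, the first beta bin 79.5 and both gamma bins together 29.7, against 12.3 in both flanks.

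**Figure D2:**
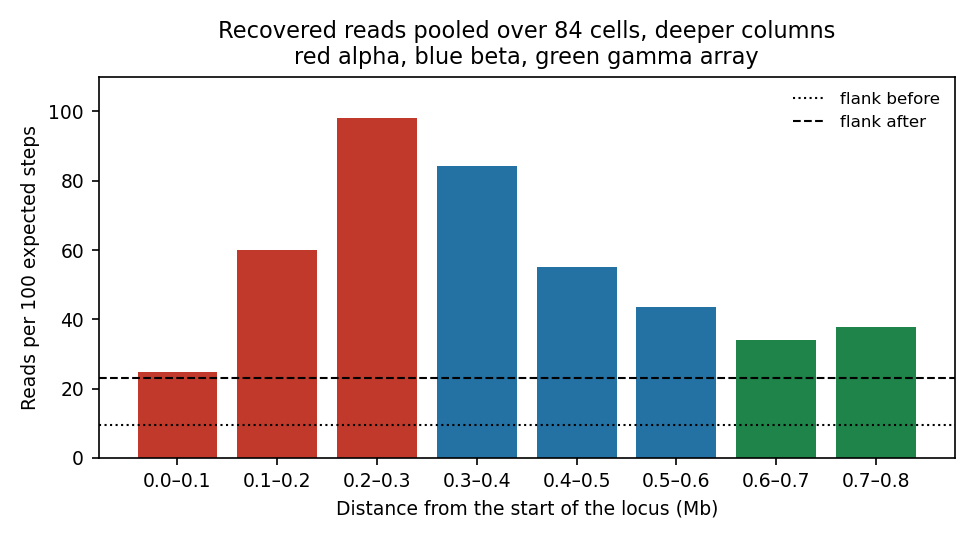
Reads recovered from the ratios, pooled over the deeper columns of 84 cells, per 100 expected steps in each bin of the locus, with lines for the flanks before (9.41) and after (23.0). The highest bar is the last alpha bin, and the first alpha bin, at 24.7, is close to the line of the flank after the locus.

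Taken within single cells, the locus exceeded its flanks on average. Locus minus both flanks was 9.46 ± 18.8 percentage points (SD, n = 84), with the locus higher in 35 cells, the flanks higher in 19 and 30 equal. Cells with the locus in contact nearly always count as higher, since 1 of 8 bins is a larger share than most cells had in the flanks. In mean ratio, with no cutoff, the locus was higher than both flanks in 57 cells and lower in 27. Against the flank before it, the difference was 11.1 ± 18.8 points, higher in 37 cells and lower in 9. Against the flank after it, the difference was 7.80 ± 19.8 points, higher in 33 and lower in 15. The alpha array alone stood 11.3 ± 25.7 points above both flanks, the beta array 10.6 ± 24.4 and the gamma array 5.00 ± 20.4. By cells, alpha was higher than the flanks in 27 and lower in 26, and beta higher in 24 and lower in 26. Gamma was higher in 12 and lower in 32. The higher counts are simply the cells with that array in contact. A single bin of an array outweighs the flanks, whose share was at most 32.5% in any cell, so these counts compare nothing further. In mean ratio, which uses no cutoff, alpha was above both flanks in 54 cells and below in 29. Beta was above in 47 and below in 36, and gamma above in 37 and below in 45. The ratio counts depend on bin number too, since a mean over 2 or 3 bins is more often 0 than one over 40. In the deeper columns 60 cells had a read in alpha, 56 in beta and 46 in gamma, against 80 in both flanks. Mean ratios were 0.415, 0.424 and 0.355 in the arrays, in order, against 0.134 in both flanks. Without cell 54 gamma had 0.245 and both flanks 0.130. In all 16 alternatives, which reuse the same cells, the locus was above the flanks, by 2.50 points at a cutoff of 2 to 17.1 points at a cutoff of 0.5. It was 11.2 ± 21.2 points in the 29 cells numbered up to 29 and 8.55 ± 17.5 in the 55 numbered from 30.

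At both edges of the locus adjacent bins differed by few cells and their intervals overlapped, so no sharp border was shown. The last bin before the locus, 140000001 to 140100000, was in contact in 1 cell (1.19%, exact 95% interval 0.0301 to 6.46%). The first alpha bin was in contact in 5 (5.95%, 1.96 to 13.3%), and the last gamma bin in 7 (8.33%, 3.42 to 16.4%). After the gamma array, the bin 140900001 to 141000000, towards DIAPH1, was in contact in 4 cells (4.76%, exact 95% interval 1.31 to 11.7%), and the next in 1. Before the locus the nearest bin of at least 20% lay 3.3 Mb away, at 136700001 to 136800000, with 22.6%. After it the nearest was at 142900001 to 143000000, 2 Mb away, with 26.2%. The flank after the locus rose towards that place, and its last bin, 142800001 to 142900000, reached 19.0%. This bin raises the mean of the flank, and with flanks of 1 Mb the locus stood 10.7 points above both flanks.

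Contact with the locus was mostly partial. Of the 84 cells, 47 had no bin in contact, 14 had 1, 10 had 2, 6 had 3 and 4 had 4. One cell each had 5, 6 and 7 bins, and none had all 8, a count of 0 that leaves room for up to 3.57% of cells by the limit of 3 cells, and up to 4.30% by the exact 95% interval. The cells with most were cell 13 with 7 adjacent bins, cell 86 with 6 adjacent bins and cell 17 with 5 bins. Cell 13 had the whole alpha and beta arrays and the first gamma bin in contact, and cell 86 the whole alpha and beta arrays and no gamma bin. In 35 of the 37 cells the longest run of contact ended inside the locus, and in the other 2, cells 48 and 54, it ran on past the gamma array. No longest run ran out in front of the alpha array.

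**Figure D3:**
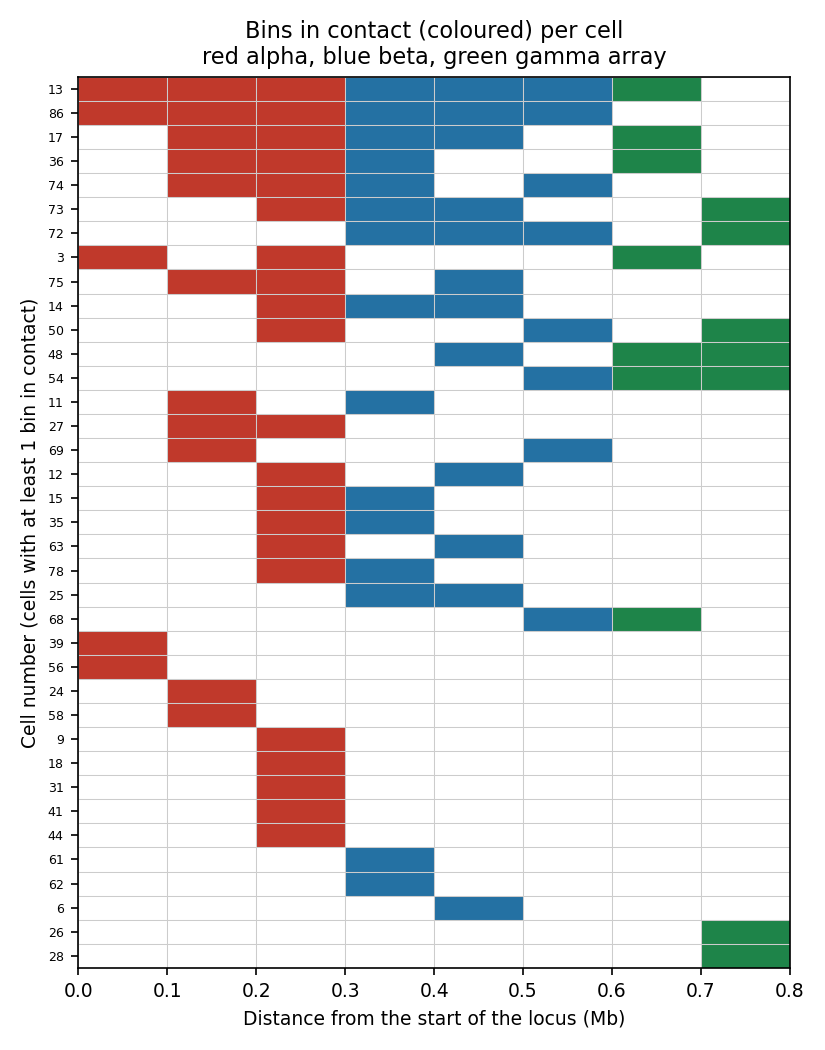
Bins in contact (coloured by array) in each of the 37 cells with at least 1, against the distance from the start of the locus in Mb, sorted by the number of bins. Cells 13 and 86 show 7 and 6 adjacent bins, while 14 cells show a single bin, most often the last alpha bin.

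By array, 11 cells had alpha and beta but not gamma in contact, 10 had alpha alone and 5 had all. A further 4 had beta alone, 4 beta and gamma, 2 gamma alone and 1 alpha and gamma. Of the 27 cells with the alpha array in contact, 16 also had the beta array (59.3%, exact 95% interval 38.8 to 77.6%), against 8 of the 57 others (14.0%, 6.26 to 25.8%). Of the 24 cells with the beta array in contact, 9 had the gamma array (37.5%, 18.8 to 59.4%), against 3 of 60 others (5.00%, 1.04 to 13.9%). For alpha and gamma the intervals overlapped, with 6 of 27 cells (22.2%, 8.62 to 42.3%) against 6 of 57 (10.5%, 3.96 to 21.5%). Alpha and beta were in contact together in 16 cells, beta and gamma in 9 and alpha and gamma in 6. Arrays of a cell share its depth and overall contact, whose part in these counts was not tested.

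**Figure D4:**
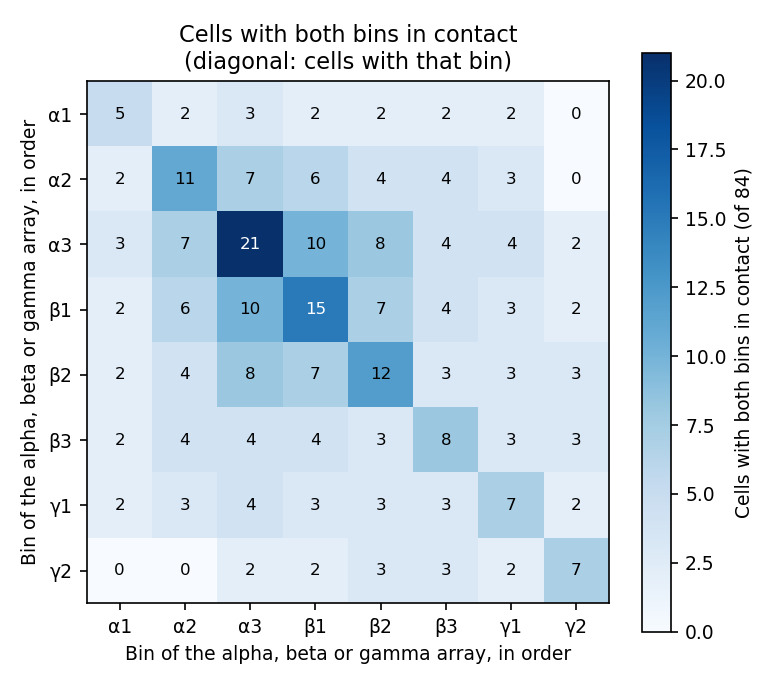
Number of the 84 cells in which both of 2 bins were in contact, for the bins of the alpha, beta and gamma arrays in order, with the cells of each bin on the diagonal. The last alpha bin and the first beta bin, the 2 bins with most cells, share 10. The first and second alpha bins, with 5 and 11 cells, share none with the last gamma bin, which had 7.

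The pair of bins most often in contact together spanned the junction of the alpha and beta arrays. The last alpha bin and the first beta bin were both in contact in 10 cells, which is 47.6% of the 21 and 66.7% of the 15. They are also the 2 bins with most cells in contact. The last gamma bin, with 7 cells, shared no cell with either of the first 2 alpha bins, which had 5 and 11. With so few cells a count of 0 says little. The shared counts to be had from the frequencies of the bins alone were not worked out. After subtraction of a linear fit on the contact share of the other chromosomes, calls in adjacent bins correlated over the 84 cells at a mean of 0.29, from 0.20 to 0.39. The highest of these 7 values was that across the alpha and beta junction, and the second highest, at 0.38, was between the first and second beta bins. Means were 0.28 at 2 bins apart, 0.18 at 3 and 0.20 at 4, and the value for the first alpha and last gamma bin, 7 apart, was -0.07. Pairs within an array had a mean of 0.25 over 7 pairs, and pairs between arrays 0.20 over 21 pairs that lie farther apart on average. On the scale of log2(ratio + 0.25) the corrected means were 0.42 for adjacent bins and 0.14 for the ends, and the highest adjacent value was 0.61, between the last beta and the first gamma bin. These are descriptions, since bins of a cell share its library and depth.

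Cells with the locus in contact had, on average, more contact elsewhere. Contact share over all covered bins was 30.2% ± 6.66 (SD) in the 37 cells with contact and 25.9% ± 5.86 in the 47 without, and the ranges overlapped, from 17.3 to 42.4% and from 14.5 to 39.0%. Over cells, the share of the locus in contact correlated with the contact share of the other chromosomes at r = 0.36 and rho = 0.32 (n = 84). With read depth the correlation was lower. The correlation with log10 reads was r = 0.16 and rho = 0.12, and the locus was in contact in 18 of the 42 cells above the median read number (42.9%, exact 95% interval 27.7 to 59.0%) and in 19 of the 42 others (45.2%, 29.8 to 61.3%). The flank before the locus was in contact in 10 of the 37 cells with the locus in contact (27.0%, exact 95% interval 13.8 to 44.1%) and in 9 of 47 others (19.1%, 9.15 to 33.3%). For the flank after it the counts were 21 of 37 (56.8%, 39.5 to 72.9%) and 11 of 47 (23.4%, 12.3 to 38.0%), with intervals that did not overlap.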

How the data were processed

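Single-cell DamID of 172 labelled samples was deposited as 1 table made by the authors, with 30376 bins of 100 kb, in which each value is a ratio (observed reads divided by expected reads). Per the submitters' processing notes, cutadapt, Bowtie2 2.1.0 and hg19 were used; how the expectation was made and duplicates treated is not given in the sources used here. Columns for 168 samples were analysed; those numbered 81, 82, 167 and 168 were not. Among the bins, 3792 had no value and 170 were 0 throughout. Columns 86 apart were averaged. Alternatives changed the cutoff, column, cells, flank length and bins.

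With Python 3.11.15, numpy 2.4.6, pandas 2.3.3 and scipy 1.17.1, whole reads were recovered as multiples of a step per bin and a factor per column; 100% of values were whole within 0.02. In simulated data, drawn around the recovered reads and so unable to show that the real units are right, 99.9999% of 1773168 values returned. Intervals are exact Clopper-Pearson 95%. A count of 0 was given a limit of 3 cells. Gene names and promoters came from RefSeq tables; PCDHA3, PCDHA13, PCDHB6, PCDHB11, PCDHGA12 and PCDHGC5 had no promoter entry. All bins of the locus are named, with array genes and their neighbours in gene order. The members, lists and cells left out were chosen with earlier results of these data known, and the promoter motifs after seeing the sequences.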

Additional observations from a re-analysis of the deposited data

How the results depend on the processing

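The spread between cells, 19.1 points for the locus, is far wider than the shift of a mean over 84 cells, so staying within it says little about stability. The cutoff moved every frequency, by construction. At 0.5, 1.5 and 2 the mean frequency was 24.6, 6.85 and 3.57% in the locus, 24.6, 7.94 and 3.57% in the alpha array, 29.0, 7.94 and 3.97% in the beta array and 17.9, 3.57 and 2.98% in the gamma array. The locus exceeded both flanks by 17.1, 5.06 and 2.50 points, and alpha exceeded gamma by 6.75, 4.37 and 0.595 points. At these cutoffs the locus was in contact in 63.1, 26.2 and 17.9% of cells and the last alpha bin in 39.3, 14.3 and 7.14%. The alpha array was in contact in 50.0, 19.0 and 9.52%, the beta array in 51.2, 15.5 and 10.7%, and the gamma array in 5.95 and 4.76% at the last 2. Alpha minus beta had no stable sign. It was -4.37 points at a cutoff of 0.5 and -0.397 at 2, -1.59 in the higher-numbered columns, -2.38 in even-numbered cells and -0.606 in cells 30 to 86; the cause was not tested. Calls are limited by depth, with a median of 4.5 reads per cell over the locus. Alternatives without cell 54, and with only the 70 cells in which a ratio of 1 stands for at least 1 read in every bin, were added after seeing the data; the locus was in contact in 45.7% of those 70 cells. No paired analysis was possible because all cells belong to 1 group, with no other group to share their numbers; the differences within cells are between regions.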

Other observations

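The locus was set beside other windows of its size, a comparison chosen after the values were seen. An excess over the flanks as large as its 9.46 points was common, found in 26.9% of 22194 windows with flanks. Of 2316 windows of 8 covered bins whose flanks of 2 Mb on each side both averaged at most 5% of cells, 31 had a mean frequency of at least the 12.8% of the protocadherin locus, at 14 separate places (1.34%), and on chromosome 5 it was 3 of 33 windows (9.09%), the locus included. That limit equals the mean of the flank after the locus, 5.00%, and was chosen with it in view. The highest place was chromosome 13 from 47500001 to 48300000, with 40.6%, and the only other place on chromosome 5 was 173900001 to 174800000, whose highest window averaged 18.6%.

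The level of the locus also moved weakly with bins of intermediate frequency (20 to 80% of cells) elsewhere on its chromosome. The corrected correlation over 84 cells of its mean log2(ratio + 0.25) had a mean of 0.14 ± 0.10 (SD over bins) with 204 such bins of chromosome 5 within 20 Mb, 0.11 ± 0.10 with 330 bins from over 20 to 50 Mb, -0.01 ± 0.10 with 483 bins farther away, and -0.04 ± 0.11 with 11494 bins of other chromosomes. These are descriptions, and bins of a cell share its library and depth.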
